A study of Mus musculus with 2 samples.

Results

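Wnt signalling was described here through 44 protein-coding genes of the 54532 genes in the count table. They were chosen by name: every gene called Wnt, Fzd, Sfrp or Dkk followed by a digit (19 Wnt ligands, 10 Frizzled receptors, 4 Sfrp and 4 Dkk secreted antagonists), plus 7 genes known as Wnt targets in liver (Axin2, Lgr5, Tbx3, Glul, Nkd1, Rnf43 and Znrf3). Of the 44, 26 reached a mean of 1 CPM (counts per 1000000 scaled counts) and are called measured, 14 stayed under 10 counts in both libraries, and 4 of those 14 (Fzd9, Dkk4, Wnt3a and Wnt8a) had 0 counts in both.

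RNA-seq counts were available for 2 tumours (1 in each group) of Hepa1-6, a mouse hepatocellular carcinoma line, raised in C57bl/6 mice. One tumour came from cells stably transfected with an IRF8-overexpression-GFP-Puro lentivirus, and the other from cells given the vector control-GFP-Puro lentivirus. Both kinds of cell were injected into the same animal, one on each side, so the tumours share a host and each stands for 1 transfected population. Host and tumour reads are both mouse and cannot be separated, and in such bulk tissue fewer cells of a type and less RNA per cell cannot be told apart. Total counts were 17316607 in the IRF8-labelled library and 20223649 in the vector-labelled library. Irf8 itself, the targeted gene, went against the labels, with 2578 counts (147 CPM) in the IRF8-labelled library and 4178 counts (209 CPM) in the vector-labelled library, so every direction below rests on the labels alone. With 1 library per group there is no replicate check and no test, and each ratio compares these 2 tumours, not the conditions. Intervals beside ratios and levels are 95% counting intervals, which cover counting error only.

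Wnt proteins are secreted lipid-modified ligands that bind a Frizzled receptor together with the co-receptors LRP5 or LRP6. In the canonical branch this stops the destruction of beta-catenin, which then enters the nucleus and switches on genes with TCF/LEF factors, among them Axin2, Nkd1, Rnf43, Znrf3 and Notum, whose products restrain the pathway in turn. Sfrp proteins bind Wnts outside the cell, and Dkk1, Dkk2 and Dkk4 act on LRP5 and LRP6. In liver the pathway marks hepatocytes around the central vein, where Glul is expressed, and it is often activated in hepatocellular carcinoma.

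To show the DNA beside the values, the 250 bases before the start site are given for the most abundant ligand gene (Wnt6), for the pair of feedback targets with the highest ratios (Axin2 and Nkd1), and for Dkk1, an antagonist gene near the limit of detection whose window holds the most motif matches. The sequences are RefSeq's (GRCm38.p6), at chr1:74771642-74771891 (plus strand) for Wnt6, chr11:108920099-108920348 (plus) for Axin2, chr8:88527383-88527632 (plus) for Nkd1 and chr19:30549497-30549746 (minus) for Dkk1. The Nkd1 start site in RefSeq lies 6279 bases downstream of the gene start in the count table, and that of Dkk1 169 bases downstream, so the Nkd1 window, and 169 bases of the Dkk1 window with at least 3 of its 4 matches, lie inside the counted gene. Capitals mark CTTTG or its reverse complement CAAAG, the core letters that TCF/LEF factors recognise, searched on both strands.
Wnt6: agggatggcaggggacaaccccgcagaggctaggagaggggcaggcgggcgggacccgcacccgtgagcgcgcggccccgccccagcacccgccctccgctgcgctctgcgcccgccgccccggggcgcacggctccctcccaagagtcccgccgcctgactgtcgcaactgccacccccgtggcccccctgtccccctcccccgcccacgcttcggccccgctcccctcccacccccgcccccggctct
Axin2: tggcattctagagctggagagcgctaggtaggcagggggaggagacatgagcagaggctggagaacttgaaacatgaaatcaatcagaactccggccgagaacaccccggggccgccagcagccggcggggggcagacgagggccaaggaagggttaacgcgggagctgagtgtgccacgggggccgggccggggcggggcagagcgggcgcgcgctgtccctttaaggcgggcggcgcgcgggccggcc
Nkd1: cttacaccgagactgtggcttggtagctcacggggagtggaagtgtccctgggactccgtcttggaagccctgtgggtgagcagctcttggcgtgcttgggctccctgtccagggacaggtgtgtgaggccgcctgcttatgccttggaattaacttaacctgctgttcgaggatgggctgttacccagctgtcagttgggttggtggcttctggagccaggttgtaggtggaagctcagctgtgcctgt
Dkk1: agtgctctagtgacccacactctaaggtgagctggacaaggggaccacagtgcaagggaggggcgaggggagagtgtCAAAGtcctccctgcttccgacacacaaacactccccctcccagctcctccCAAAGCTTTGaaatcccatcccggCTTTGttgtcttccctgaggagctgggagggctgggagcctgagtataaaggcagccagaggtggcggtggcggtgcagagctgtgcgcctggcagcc
The Dkk1 window held 4 matches to CTTTG, an adjacent pair of them in opposite orientation, while the windows of Wnt6, Axin2 and Nkd1 held none. Of 33 such windows for 29 of the 44 genes, 12 held the core, and 48.6% of all 32851 promoter windows of that length held it. The longer CTTTGA, which contains the core, was in 4 of the 33 windows and in 13.8% of all windows.

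The size rule was a log2 ratio of at least 1 in either direction with a counting interval that excludes 0. By this rule, 1 of the 26 measured genes was higher in the IRF8-labelled library (Wnt5a) and 2 were lower (Sfrp1 and Wnt9a). Wnt9a had 0.797 CPM in the IRF8-labelled and 2.01 CPM in the vector-labelled library. It reached the mean of 1 CPM only through the vector-labelled library. Among all 14775 measured genes, 2.59% were higher and 2.77% lower by the same rule, and 1 and 2 of 26 genes (3.85% and 7.69%) are counts too small to set apart from that background. The median log2 ratio of the 26 genes was 0.11, against -0.0012 for all measured genes. Smaller differences were more frequent: the counting interval lay above 0 for 11 genes and below 0 for 8, which is 42.3% and 30.8%, while 23.5% and 25.8% of all measured genes had such intervals. Of those 8, the intervals of Fzd10 and Fzd2 ended at log2 ratios of -0.00037 and -0.0096, so another scaling can bring 0 inside them. As a set, the 26 genes were counted more deeply, with a median level of 50.5 CPM against 25.8 CPM. Deeper counts give narrower intervals. Without the targets this did not hold: the other 19 measured genes had a median of 24.3 CPM. Of their intervals, 31.6% lay above 0 and 36.8% below. Within 1.5-fold lay 18 of the 26 genes (69.2%), against 85.5% of all measured genes.

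**Figure D1:**
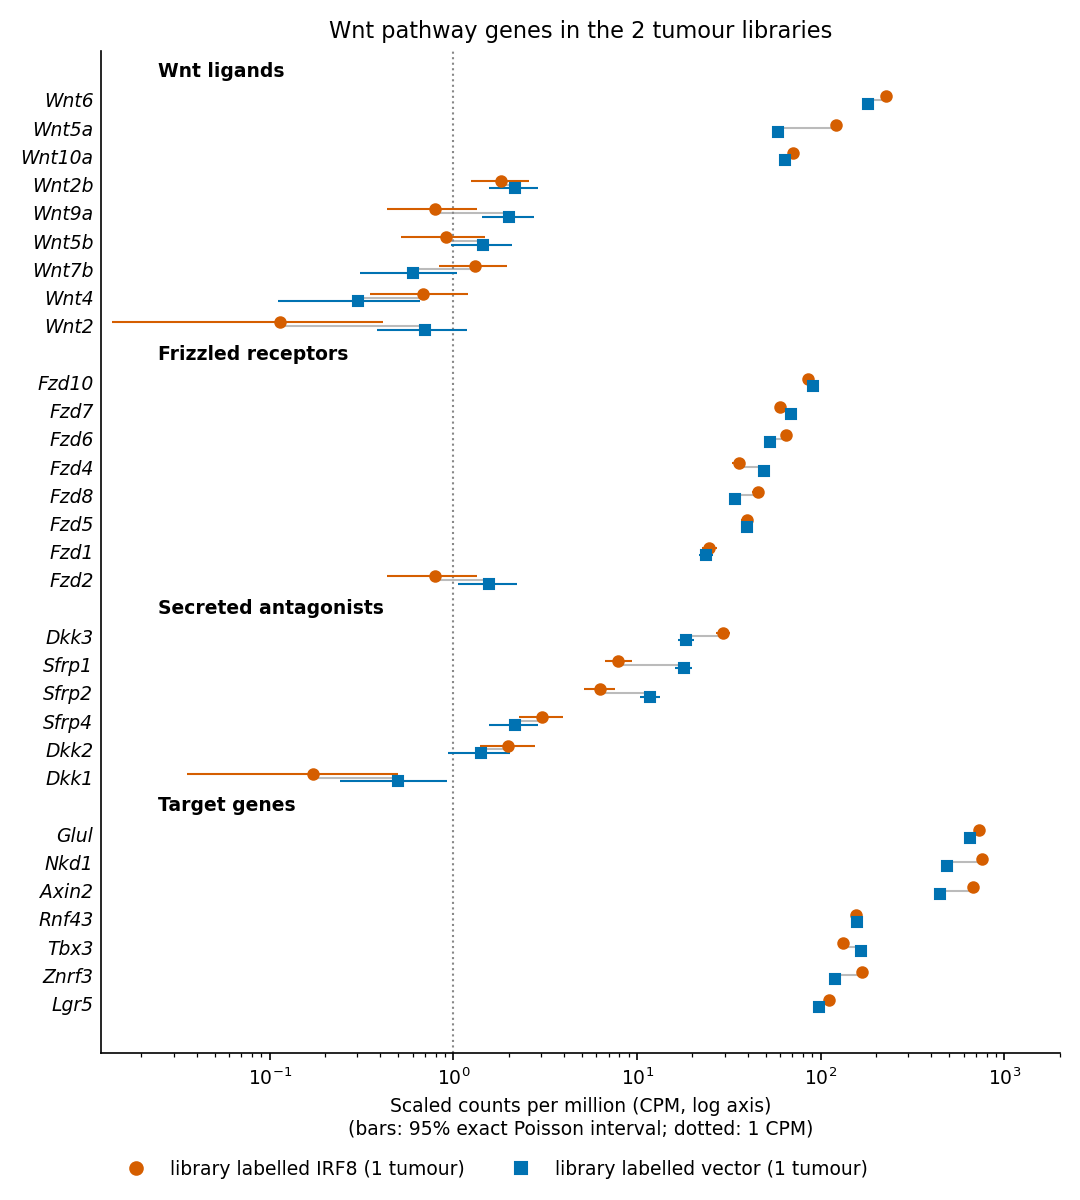
Level of the 30 Wnt pathway genes with at least 10 counts in a library, in scaled CPM on a log axis, with circles for the IRF8-labelled and squares for the vector-labelled tumour. Bars are 95% exact Poisson intervals; the widest gap among well-counted ligands is at Wnt5a, with 121.0 CPM in the IRF8-labelled and 58.5 CPM in the vector-labelled library.

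Among the ligands, 3 genes supplied nearly all transcripts. Wnt6 (ENSMUSG00000033227, chromosome 1, 74771892 to 74785322, plus strand), a ligand known for its part in epithelial development, had 3996 counts in the IRF8-labelled and 3609 in the vector-labelled library. These are 228 CPM (221 to 235) and 181 CPM (175 to 187), a ratio of 1.26 (1.20 to 1.32). Its neighbour Wnt10a, a ligand of skin appendages and teeth, begins 6193 bases further on the same strand (74791516 to 74804179). Wnt10a had 1246 counts in the IRF8-labelled and 1275 in the vector-labelled library, a ratio of 1.11 (1.03 to 1.20) after scaling. Both genes of this neighbouring pair were thus abundant in both tumours and closer than 1.5-fold between them. The other neighbouring Wnt pairs were at low counts: Wnt9b and Wnt3 had at most 1 count in either library, Wnt10b and Wnt1 at most 9, and Wnt3a had 0 beside Wnt9a, described below.

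Wnt5a (ENSMUSG00000021994, chromosome 14, 28504750 to 28527448, plus strand), the prototype ligand of the beta-catenin-independent branch, had the highest ratio of the 26 measured genes. In the other direction the differences of Sfrp1 and Wnt9a, given below, were larger in size. Wnt5a had 2124 counts in the IRF8-labelled and 1167 in the vector-labelled library, or 121.0 CPM (116 to 126) and 58.5 CPM (55.2 to 62.0). The ratio was 2.07 (1.92 to 2.22), so its interval reaches below 2-fold. Set against Wnt6 within each library, which needs no scaling between libraries, the Wnt5a count was 0.532 of the Wnt6 count in the IRF8-labelled and 0.323 in the vector-labelled library, a difference of 1.64-fold (1.51 to 1.79). An antisense gene, Gm2670, overlaps 358 exonic bases of Wnt5a and had 23 and 2 counts in the IRF8-labelled and vector-labelled libraries, few beside those of Wnt5a.

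Scaled for gene length as RPKM, Wnt6 was first of the ligands in both libraries (104 RPKM in the IRF8-labelled and 82.5 in the vector-labelled library), followed by Wnt10a (28.8 and 25.9) and Wnt5a (15.5 and 7.48). Wnt6, Wnt10a and Wnt5a together made up 98.8% of the summed ligand RPKM in the IRF8-labelled and 97.9% in the vector-labelled library. Wnt5a took 10.3% of that sum in the IRF8-labelled and 6.32% in the vector-labelled library, and Wnt6 took 69.3% and 69.7%. On the RPKM scale Wnt6 stood at percentile 97.2 of measured protein-coding genes in the IRF8-labelled and 96.1 in the vector-labelled library.

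The remaining 16 ligands had at most 43 counts in either library. Wnt9a (chromosome 11, 59306928 to 59333552, plus strand), which also met the size rule, had 14 counts in the IRF8-labelled and 40 in the vector-labelled library, a level 2.51-fold lower (1.34 to 5.00). Wnt2, an endothelial ligand in liver, had 2 counts in the IRF8-labelled and 14 in the vector-labelled library, a level 6.16-fold lower (1.42 to 55.9) that is too thinly counted to be measured. Wnt2b (32 and 43 counts), Wnt5b (16 and 29) and Wnt4 (12 and 6), each with the IRF8-labelled library first, had intervals that held no difference. Wnt7b had 23 counts in the IRF8-labelled and 12 in the vector-labelled library, and its ratio of 2.18 (1.04 to 4.80) rests on a mean below 1 CPM. None of the other 10 ligands had more than 9 counts in either library, and the floor set for a count of 0 was 3 counts, which is 0.171 CPM for the IRF8-labelled and 0.150 CPM for the vector-labelled library.

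**Figure D2:**
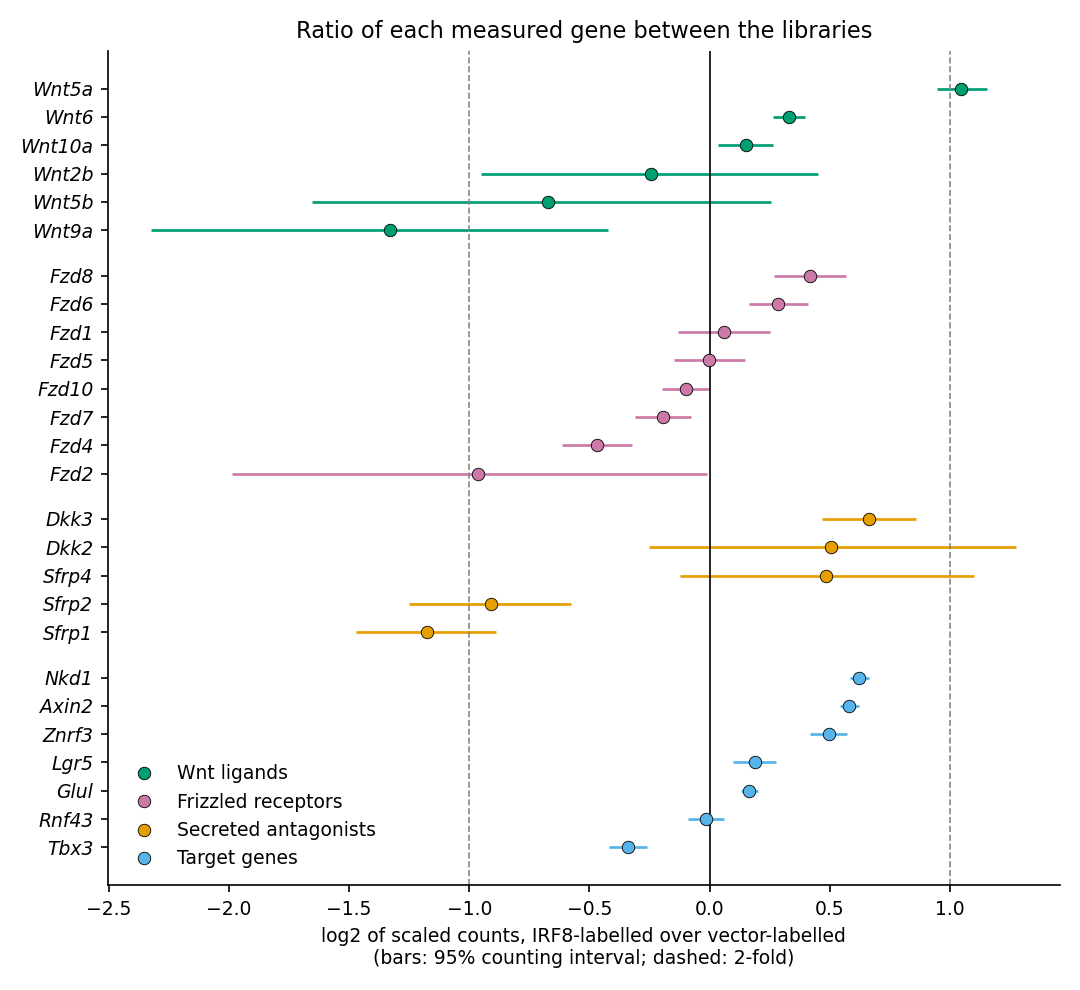
Log2 ratio of scaled counts, IRF8-labelled over vector-labelled library, for the 26 measured genes by role, without a prior count. Bars are 95% counting intervals and dashed lines mark 2-fold; Wnt5a lies right of the upper line, and Sfrp1 and Wnt9a left of the lower one.

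The Frizzled genes, which encode the seven-span receptors that bind Wnts, had no common direction. None of the 8 measured genes met the size rule and 7 lay within 1.5-fold (87.5%, near the 85.5% of all measured genes), with a median log2 ratio of -0.05. Intervals lay above 0 for 2 and below 0 for 4 (25% and 50%), against 23.5% and 25.8% of all measured genes. Among those 4, the intervals of Fzd10 and Fzd2 only just excluded 0. The summed level of the 10 Frizzled genes was 83.5 RPKM in both libraries. By length, Fzd10 was the most abundant, with 26.2 RPKM in the IRF8-labelled and 28.1 RPKM in the vector-labelled library and a ratio of 0.933 (0.871 to 1.00, the upper end just under no difference). Fzd8 (13.6 and 10.2 RPKM), Fzd6 (13.3 and 10.9) and Fzd7 (13.2 and 15.1) followed in the IRF8-labelled and vector-labelled libraries. Fzd7 thus stood second in the vector-labelled library, while in the IRF8-labelled library Fzd8, Fzd6 and Fzd7 lay too close together to be ranked. Fzd10, Fzd7, Fzd6 and Fzd8 made up 79.4% of the receptor RPKM in the IRF8-labelled and 77.0% in the vector-labelled library.

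Single receptors went both ways. Fzd8 had 799 counts in the IRF8-labelled and 680 in the vector-labelled library, a ratio of 1.33 (1.20 to 1.48), and Fzd6 had 1128 and 1051 counts, a ratio of 1.22 (1.12 to 1.33). Fzd4, which also serves norrin in blood vessels of the retina, had 626 counts in the IRF8-labelled and 983 in the vector-labelled library, a level 1.38-fold lower (1.25 to 1.53). Fzd7 had 1052 and 1366 counts in the IRF8-labelled and vector-labelled libraries, 1.14-fold lower (1.05 to 1.24). Between Fzd6 and Fzd4, the count ratio was 1.80 in the IRF8-labelled and 1.07 in the vector-labelled library, a shift of 1.69-fold (1.48 to 1.92) that no scaling can change. Fzd5 (695 and 790 counts) and Fzd1 (435 and 474) had ratios of 0.999 and 1.04 with intervals that held no difference. Fzd2 had 14 counts in the IRF8-labelled and 31 in the vector-labelled library, with an interval of the ratio (0.252 to 0.993) that ends next to no difference, and Fzd3 had 6 and 3.

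The secreted antagonists split by gene, with Sfrp1 and Sfrp2 lower and Dkk3 higher in the IRF8-labelled library. Over the 5 measured antagonists the log2 ratio had a median of 0.47, but -0.90 over those with a mean of at least 5 CPM (Dkk3, Sfrp1 and Sfrp2), so it gives no direction for the family. Sfrp1 (ENSMUSG00000031548, chromosome 8, 23411502 to 23449632, plus strand), which binds Wnts through a Frizzled-like cysteine-rich domain, had 139 counts in the IRF8-labelled and 357 in the vector-labelled library. These are 7.92 CPM (6.66 to 9.35) and 17.9 CPM (16.1 to 19.9), a level 2.26-fold lower (1.85 to 2.77). Sfrp2 (ENSMUSG00000027996, chromosome 3, 83766321 to 83774316, plus strand), from the same family, had 110 counts in the IRF8-labelled and 235 in the vector-labelled library, 1.88-fold lower (1.49 to 2.38), which falls short of the size rule. The Sfrp1 to Sfrp2 count ratio was 1.26 in the IRF8-labelled and 1.52 in the vector-labelled library, and the interval of their quotient (0.617 to 1.12) held no difference.

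Dkk3 (ENSMUSG00000030772, chromosome 7, 112116017 to 112159057, minus strand), a divergent family member whose place in Wnt signalling is less settled, had 514 counts in the IRF8-labelled and 369 in the vector-labelled library, a ratio of 1.58 (1.38 to 1.81). Dkk3 counts were 3.70 times those of Sfrp1 in the IRF8-labelled and 1.03 times in the vector-labelled library, a shift of 3.58-fold (2.82 to 4.54). Sfrp4 (53 and 43 counts) and Dkk2 (35 and 28) had intervals that held no difference. Dkk1, whose promoter window is printed above, had 3 counts in the IRF8-labelled and 10 in the vector-labelled library, with a ratio interval of 0.0603 to 1.32. Sfrp5 had 6 counts in the IRF8-labelled library and 0 in the vector-labelled library.

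The Sfrp and Dkk antagonists were a small pool, and its makeup shifted more than its size. They summed to 49.0 CPM in the IRF8-labelled and 52.2 CPM in the vector-labelled library. The 11 other extracellular antagonists, described below, summed to more, 222.8 and 159.1 CPM, and are not part of this pool. The summed RPKM of all 8 Sfrp and Dkk genes was 14.9 in the IRF8-labelled and 16.2 in the vector-labelled library, against 149.9 and 118.4 for the ligands, or 0.0997 and 0.137 Sfrp and Dkk RPKM per ligand RPKM. Dkk3 held 58.3% of the antagonist RPKM in the IRF8-labelled and 34.0% in the vector-labelled library, while Sfrp1 held 12.1% and 25.3% and Sfrp2 held 19.5% and 33.8%. Dkk3 was first by length in both libraries, but in the vector-labelled library its 5.51 RPKM stood next to the 5.47 RPKM of Sfrp2.

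**Figure D3:**
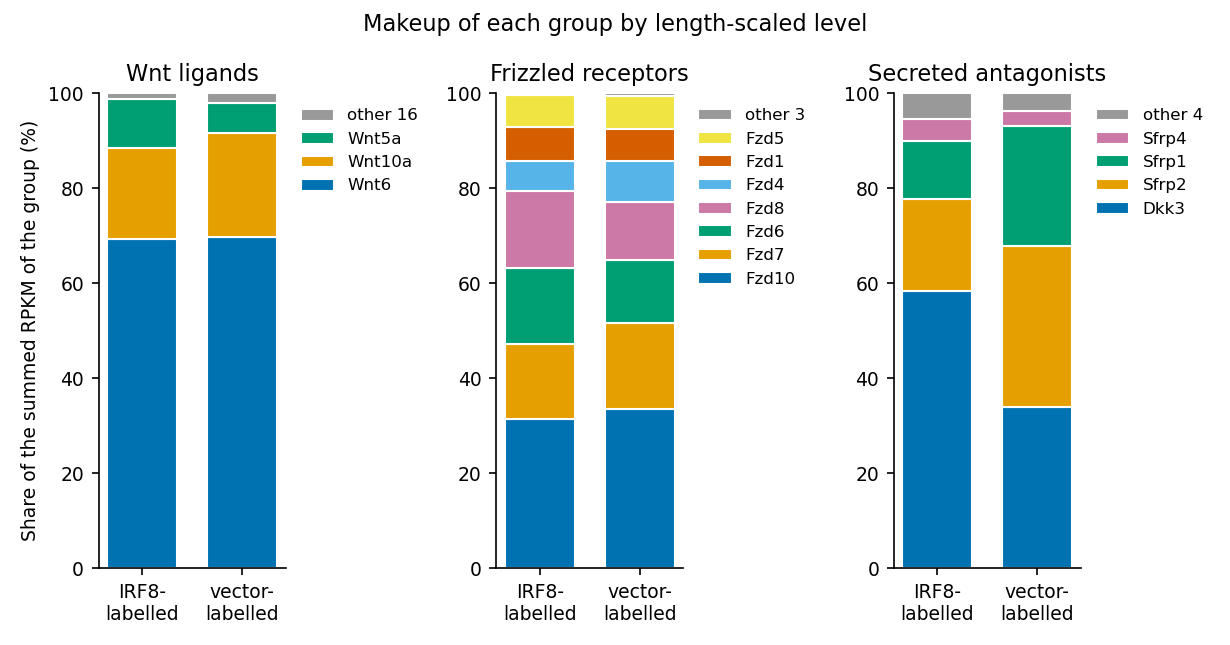
Share of each group's summed RPKM (scaled CPM per kilobase of gene length) held by single genes, with the IRF8-labelled library on the left of each pair. Wnt6 holds 69.3% of the ligands in the IRF8-labelled and 69.7% in the vector-labelled library, and Wnt5a 10.3% and 6.32%. Among the receptors, Fzd8 holds 16.3% and 12.2%, and Fzd4 6.35% and 8.79%. The Dkk3 share of the Sfrp and Dkk antagonists is 58.3% against 34.0%.

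Among the target genes, the feedback genes Axin2, Nkd1 and Znrf3 had counting intervals above 0, while that of Rnf43, also a feedback gene, included 0. The 7 targets summed to 582 RPKM in the IRF8-labelled and 458 RPKM in the vector-labelled library, most of it from Glul, Nkd1 and Axin2. Axin2 (ENSMUSG00000000142, chromosome 11, 108920349 to 108950783, plus strand), the scaffold of the beta-catenin destruction complex that is induced by the pathway, had 11775 counts in the IRF8-labelled and 8944 in the vector-labelled library. These are 671 CPM (659 to 683) and 448 CPM (439 to 458), a ratio of 1.5 (1.46 to 1.54). Nkd1 (ENSMUSG00000031661, chromosome 8, 88521354 to 88594884, plus strand), which binds Dishevelled and dampens the signal, had 13229 counts in the IRF8-labelled and 9754 in the vector-labelled library, a ratio of 1.54 (1.5 to 1.58). The Nkd1 to Axin2 count ratio was 1.12 in the IRF8-labelled and 1.09 in the vector-labelled library, and the interval of their quotient (0.992 to 1.07) held no difference. Axin2 and Nkd1 thus kept nearly the same proportion to each other in both tumours.

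Znrf3 and Rnf43 encode related membrane ubiquitin ligases that remove Frizzled receptors from the cell surface, and they differed from one another. Znrf3 had 2950 counts in the IRF8-labelled and 2378 in the vector-labelled library, a ratio of 1.41 (1.33 to 1.49). Rnf43 had 2724 and 3123 counts in the IRF8-labelled and vector-labelled libraries, a ratio of 0.991 (0.941 to 1.04). The Znrf3 to Rnf43 count ratio was 1.08 in the IRF8-labelled and 0.761 in the vector-labelled library, a shift of 1.42-fold (1.32 to 1.53).

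The targets best known from zonation and progenitors differed less, and Tbx3 was lower. Glul, which encodes glutamine synthetase of the hepatocytes around the central vein, had 12778 counts in the IRF8-labelled and 12944 in the vector-labelled library, a ratio of 1.12 (1.09 to 1.15). Lgr5, the R-spondin receptor of many stem cells, had 1958 and 1954 counts in the IRF8-labelled and vector-labelled libraries, a ratio of 1.14 (1.07 to 1.21). Tbx3, a transcription factor described as a beta-catenin target in liver tumours, had 2306 counts in the IRF8-labelled and 3315 in the vector-labelled library, 1.27-fold lower (1.20 to 1.34). Its antisense partner Tbx3os1 overlaps 115 exonic bases and had 199 counts in the IRF8-labelled and 310 in the vector-labelled library, and without strand the reads of the pair cannot be told apart there. Axin2 counts were 5.11 times those of Tbx3 in the IRF8-labelled and 2.70 times in the vector-labelled library, a shift of 1.89-fold (1.78 to 2.01), and 0.922 and 0.691 of those of Glul.

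Of the 7 targets, 5 had counting intervals above 0 and 1 below, where 23.5% and 25.8% of all measured genes did, with a median log2 ratio of 0.19, and none met the size rule. These targets were counted far more deeply, at a median of 156 CPM against 25.8 CPM for all measured genes, which narrows their intervals. On the RPKM scale Glul, Nkd1 and Axin2 stood at percentiles 98.7, 98.3 and 97.8 of measured protein-coding genes in the IRF8-labelled library and at 98.5, 97.1 and 96.0 in the vector-labelled library. Axin2 and Nkd1, both feedback genes, were thus among the more abundant transcripts of both tumours.

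Other genes of the pathway are given by role. Of the 19 genes of beta-catenin destruction and transcription, all were measured, none met the size rule and the median log2 ratio was 0.12. Ctnnb1, which encodes beta-catenin, had 10330 counts in each library, a ratio of 1.14 (1.11 to 1.17) after scaling, and the kinase gene Csnk1a1 and the TCF factor gene Tcf7 had ratios of 0.959 (0.932 to 0.987) and 1.09 (1.04 to 1.14). Of the 8 genes of Wnt secretion and co-receptors, none met the size rule, 5 lay within 1.5-fold and the median was 0.40. Intervals lay above 0 for 4 and below 0 for 1 (50% and 12.5%), against 23.5% and 25.8% of all measured genes. Porcn, the enzyme that attaches the lipid to Wnts, had a ratio of 1.64 (1.18 to 2.30), and the Wnt receptor genes Ror1 and Ptk7 had ratios of 1.61 (1.34 to 1.95) and 1.54 (1.23 to 1.93), all chosen after their values were seen. Wls, the other Wnt secretion gene of this list and also named after its value was seen, had a ratio of 1.05 (0.900 to 1.23). Ror2, likewise named after its value was seen, had an interval that held no difference. Lrp5 and Lrp6 had ratios of 0.996 (0.951 to 1.04) and 0.952 (0.908 to 0.998), while Ryk, a receptor-like kinase that binds Wnt5a among others, had 1400 counts in the IRF8-labelled and 1149 in the vector-labelled library, a ratio of 1.38 (1.28 to 1.5).

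Of the 10 general target genes, which share Tcf7, Lef1, Notum and Apcdd1 with other lists, none met the size rule. Intervals lay above 0 for 5 and below 0 for 1 (50% and 10%), against 23.5% and 25.8% of all measured genes. The median level was 163 CPM, against 25.8 CPM for all measured genes, and the median log2 ratio was 0.32. Sp5, a transcription factor gene induced by Wnt in many cells, had 5502 counts in the IRF8-labelled and 3513 in the vector-labelled library, a ratio of 1.78 (1.71 to 1.86). Cd44 had a ratio of 1.25 (1.22 to 1.28), and Ccnd1, which encodes cyclin D1, was 1.22-fold lower (1.19 to 1.25). Of the 11 other extracellular antagonists 4 were measured, with a median of 0.48, and 1 met the size rule: Wif1, which binds Wnts, had 24 counts in the IRF8-labelled and 72 in the vector-labelled library, 2.64-fold lower (1.64 to 4.38). Notum, the secreted enzyme that strips the lipid from Wnts and a feedback target, had 3061 counts in the IRF8-labelled and 2429 in the vector-labelled library, a ratio of 1.43 (1.36 to 1.51), Kremen1 had a ratio of 1.40 (1.26 to 1.56), and Apcdd1 had 29 and 23 counts.

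Of 6 R-spondin and LGR receptor genes 2 were measured. Lgr6 met the size rule, with 42 counts in the IRF8-labelled and 21 in the vector-labelled library, a ratio of 2.27 (1.32 to 4.04), and Lgr4 had 351 and 613 counts, 1.54-fold lower (1.35 to 1.76). No R-spondin gene had more than 4 counts in either library. Of 9 pericentral liver genes 7 were measured, with a median of -0.16. They went in opposite directions at the extremes: Cyp2e1 had 61 counts in the IRF8-labelled and 6 in the vector-labelled library, a ratio of 11.6 (5.01 to 32.7), while the ammonium transporter gene Rhbg had 5 and 87, 15.3-fold lower (6.32 to 48.3). Oat, the most abundant of them by count, had a ratio of 1.06 (1.01 to 1.11), Lect2 was 1.12-fold lower (1.03 to 1.22) and Slc1a2 1.47-fold lower (1.33 to 1.62).

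**Figure D4:**
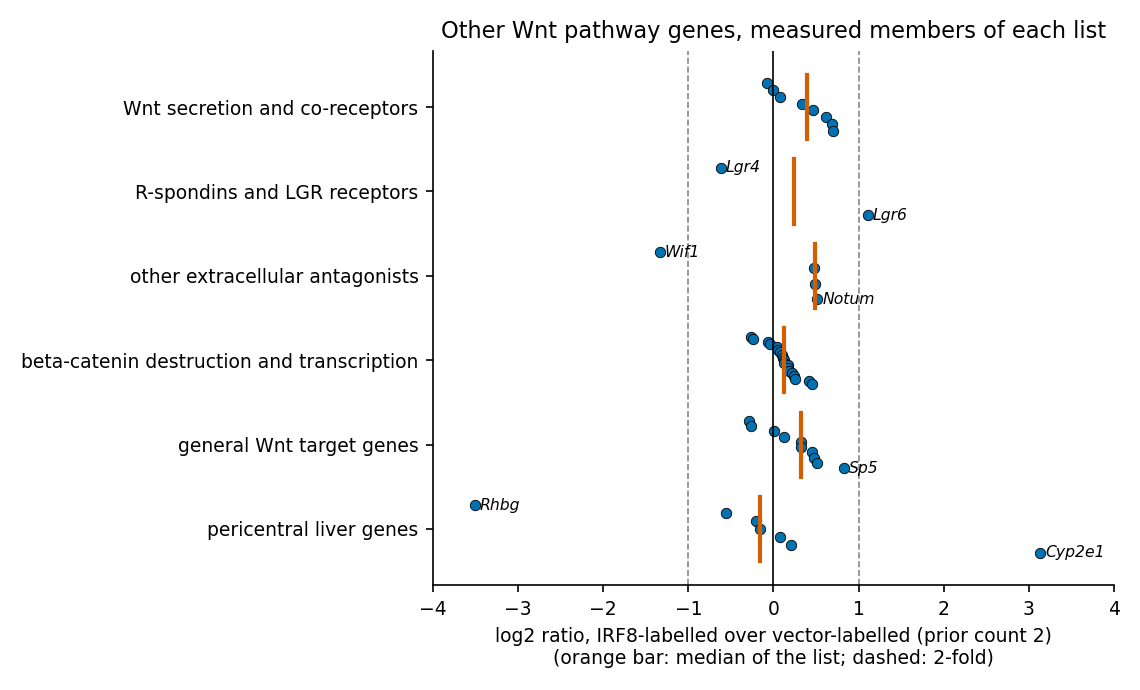
Log2 ratio, IRF8-labelled over vector-labelled library, of the measured genes in 6 lists of other Wnt pathway genes, with a prior count of 2. Each point is a gene, orange bars are list medians and dashed lines mark 2-fold; Lgr6 and Cyp2e1 lie above 2-fold, and Wif1 and Rhbg below.

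Some markers of other cell types differed between the libraries too, and their part in the results was not tested. Counts in these lists stand beside those of all measured genes. Of all measured genes, 2.59% were higher and 2.77% lower by the size rule, and 23.5% and 25.8% had intervals above and below 0. Beside Wnt5a, Dkk3, Sfrp1 and Sfrp2, which fibroblasts and other stromal cells are known to express, the 8 fibroblast markers summed to 4233 CPM in the IRF8-labelled and 3983 CPM in the vector-labelled library, with all 8 within 1.5-fold, 3 intervals above 0, 3 below and a median log2 ratio of -0.12. Dcn alone gave 2128 CPM of that sum in the IRF8-labelled and 1765 CPM in the vector-labelled library. The 7 pericyte and smooth muscle markers summed to 1232 CPM in the IRF8-labelled and 656 CPM in the vector-labelled library. All 6 measured ones had intervals above 0, and Rgs5, Pdgfrb and Acta2 had ratios of 1.96, 1.73 and 1.53. By the size rule 2 of the 6 were higher, Des at 2.82 and Cspg4 at 2.18, both named after their values were seen. The 7 endothelial markers summed to 133.0 CPM in the IRF8-labelled and 130.8 CPM in the vector-labelled library. Of their intervals 3 lay above 0 and 1 below, with a median log2 ratio of 0.10. Skeletal muscle markers (8 of 8 met the size rule) summed to 291.7 CPM in the IRF8-labelled and 6.67 CPM in the vector-labelled library. Adipocyte markers (6 of 7, with Lep at 1 and 0 counts) summed to 125.2 and 33.5 CPM. In the vector-labelled library only Acta1 and Myh1 of the muscle markers, and Fabp4, Car3 and Cfd of the adipocyte markers, exceeded 1 CPM. The other measured ones reached the mean of 1 CPM only through the IRF8-labelled library. Skin epithelium markers, with Dsg3 at 0 in both libraries, summed to 16.1 CPM in the IRF8-labelled and 11.6 CPM in the vector-labelled library, and Schwann cell and nerve markers to 17.3 and 13.1 CPM. The skin markers went both ways, so their sum gives no direction. Krt14 had 186 counts in the IRF8-labelled and 85 in the vector-labelled library, a ratio of 2.49 (1.91 to 3.25). Krt5 had 33 and 69, 1.84-fold lower (1.20 to 2.88), and Krt10 had 56 and 51. Markers of hepatocytes, the cell type behind the line, summed to 2463 CPM in the IRF8-labelled and 4786 CPM in the vector-labelled library, with 4 of 8 lower by the size rule and Alb, Apob and Hnf4a at ratios of 0.50, 1.07 and 1.04. Those 4, named after their values were seen, were Fga, with 4 counts in the IRF8-labelled and 4992 in the vector-labelled library, Ahsg, with 7 and 2187, Apoa1, with 398 and 2205, and Ttr, with 319 and 1065. Fga and Ahsg, at 0.228 and 0.399 CPM in the IRF8-labelled library, reached the mean of 1 CPM only through the vector-labelled library. Macrophage markers summed to 373.4 CPM in the IRF8-labelled and 416.8 CPM in the vector-labelled library, T cell markers to 78.4 and 88.6 CPM, and B and plasma cell markers to 134.1 and 29.9 CPM.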

How the data were processed

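Whole tumours were extracted with Trizol and libraries prepared from total RNA with a NEBNext Ultra kit, per the labels' protocols. That kit keeps no strand information as it is named. Per the file headers, the deposited values are raw read counts of genes in each library, beside gene names, biotypes, lengths and coordinates. Alignment and counting software named in the submitters' processing notes is HISAT2 2.0.5 and featureCounts 1.5.0-p3, with the build mm10. The sources used here do not say how reads with several mapping places were handled. Gene lengths were used as deposited.

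Counts were scaled with TMM in edgeR 4.0.16 (R 4.3.3). CPM are counts relative to the effective library size, and RPKM divide these by gene length in kilobases. The log2 ratio, IRF8-labelled over vector-labelled, used a prior count of 2. Printed folds used scaled counts without it. Genes whose mean CPM reached 1 were measured, and called higher or lower at 2-fold with a counting interval (95% Clopper-Pearson, from the split of its 2 counts) that excludes 0 on the log2 scale. Ratios between 2 genes carry a 95% interval from the Poisson error of the 4 counts on the log scale. PCR copies were not marked, so intervals may be too narrow. The steps were tested on simulated data.

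The libraries' columns were matched to the labels by name. The members and lists were chosen with earlier results of these data known. Named were members with at least 10 counts in a library, pathway list genes that met the size rule with up to 3 others per list of the highest mean CPM, and up to 3 such genes per marker list. Other genes named after their values were seen are marked. All 44 genes are in GENCODE M21 (GRCm38), 43 with the same start and end, and 9 overlap exons of another gene. Alternatives were other scaling factors (DESeq2 1.42.0 size factors, upper quartile, total counts), prior counts of 0.5 and 5, other expression filters, thinning of the deeper library and a 1.5-fold rule.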

Additional observations from a re-analysis of the deposited data

How the results depend on the processing

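Wnt5a, Sfrp1 and Wnt9a were the genes past 2-fold under DESeq2 size factors, total counts, upper quartile factors, prior counts of 0.5 and 5, and a thinned vector-labelled library. The counts depended on the expression filter and the fold. Without a filter 3 Wnt pathway genes were higher (Wnt5a, Wnt7b and Sfrp5) and 3 lower (Sfrp1, Wnt9a and Wnt2), and over all genes 814 were higher and 719 lower, against 383 and 410 in the reported analysis. Among genes averaging 5 CPM or more, 1 was higher (Wnt5a) and 1 lower (Sfrp1), 119 and 179 over all genes, and the antagonist median was -0.90 over Dkk3, Sfrp1 and Sfrp2, because fewer genes are left. With a 1.5-fold rule, 3 were higher (Nkd1, Wnt5a and Dkk3) and 4 lower (Sfrp1, Sfrp2, Wnt9a and Fzd2), and 1025 and 822 over all genes. The ligand median was -0.04 in the reported analysis, 0.13 without a filter and 0.33 among genes averaging 5 CPM or more, so it gives no direction for the ligands. Fzd5 and Rnf43, whose intervals held no difference, took a log2 ratio of 0.04 and 0.03 under total counts, and Fzd5 one of 0.0091 under upper quartile factors. Total counts moved Glul to 0.21 and Nkd1 to 0.66, past their counting intervals, in the same direction. That setting also moved Fzd10 from -0.10 to -0.06 and Fzd2 from -0.88 to -0.84. Each shift exceeds the distance of the interval from 0, so the count of 8 intervals below 0 depends on the scaling. No paired analysis was possible because each group has 1 library. Depth limits the 14 genes under 10 counts in both libraries, whose counting intervals held no difference except that of Sfrp5 (6 counts in the IRF8-labelled and 0 in the vector-labelled library).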
